A study of Saccharomyces cerevisiae with 28 samples.

Results

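Slf1 and Sro9 are the budding yeast LARPs, and the comparison described here set the 2 Slf1 PAR-CLIP libraries made after hydrogen peroxide against the 2 Sro9 PAR-CLIP libraries made after the same treatment. These 4 libraries are part of 8 PAR-CLIP libraries and 28 samples in all. The Slf1 libraries came from a strain with Slf1-TAP and the Sro9 libraries from a strain with Sro9-TAP, each treated with 0.4 mM H2O2 for 15 min. The matching untreated libraries of both strains, 2 of each, entered the same fit. Both strains are BY4741 derivatives in which the chromosomal copy of the LARP gene, with its native promoter, ends in a tandem affinity purification (TAP) tag, so each strain still had the other LARP, untagged. For mRNA levels, total RNA of H2O2-treated wild type (WT) cells, which carry no tag, and of both tagged strains was used. Each LARP was assayed in 1 strain, from duplicate cultures. Non-crosslinked controls were not analysed here.

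LARPs bind RNA through a La motif, and the yeast pair are polysome-associated proteins. In PAR-CLIP, cells take up 4-thiouracil, ultraviolet light crosslinks it to the bound protein, and crosslinked uridines appear in the sequence as C. Such a T–C conversion therefore marks the point of contact, and reads that overlap are grouped into clusters whose mode is the position of highest signal. Hydrogen peroxide is an oxidant that yeast removes with peroxiredoxins, thioredoxins, glutaredoxins and superoxide dismutases, and it also slows translation within minutes.

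The unit of comparison was the share of a library's mRNA cluster reads that fell on an mRNA, in percent. A cluster was kept with at least 5 reads, at least 2 conversions and 11 to 100 nt, and it was given to an mRNA when its mode lay on the same strand in the ORF or in the 200 nt after the stop codon. The kept mRNA cluster reads numbered 31052 and 20068 in the Slf1 libraries, on 604 and 290 mRNAs, and 259927 and 196529 in the Sro9 libraries, on 2822 and 2404 mRNAs. They were 5.70% and 5.80% of all kept cluster reads for Slf1, against 38.3% and 28.1% for Sro9, with the rest on RNA genes and other places. A kept cluster of 5 reads was 0.0161% and 0.0249% of an Slf1 library but 0.00192% and 0.00254% of an Sro9 library, so weakly bound mRNAs were visible to a lower share with Sro9. Shares were not divided by the level of the mRNA, and levels in total RNA are given beside some of the differences. The test covered the 338 mRNAs, of 3912 with a kept cluster in any of the 8 libraries, whose mean share over the 8 was at least 0.05%.

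The sites that carry the comparison are shown first, each as the most read ORF cluster of that LARP after H2O2, read 5′ to 3′ from the R64 genome on the strand of the mRNA, with thymines in capitals because only there can a conversion be read. Each of these sequences occurs 1 time in the genome. OLA1 is shown because it took the highest share of the Slf1 reads, RPS0A because it took the highest share of the Sro9 reads and has its site in common between the LARPs, VAS1 for a site at the same place in both, and CCW12 and TPI1 for their large differences.
OLA1, Slf1, chrII:290996-291041, reverse strand: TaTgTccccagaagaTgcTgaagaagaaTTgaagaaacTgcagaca
OLA1, Sro9, chrII:290917-290949, reverse strand: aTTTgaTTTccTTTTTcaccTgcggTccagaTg
RPS0A, Slf1, chrVII:921171-921212, forward strand: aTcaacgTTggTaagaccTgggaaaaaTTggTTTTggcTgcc
RPS0A, Sro9, chrVII:921171-921218, forward strand: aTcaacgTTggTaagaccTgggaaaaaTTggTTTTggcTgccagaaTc
VAS1, Slf1, chrVII:674075-674091, forward strand: cTggTTcTcgTccggTT
VAS1, Sro9, chrVII:674075-674105, forward strand: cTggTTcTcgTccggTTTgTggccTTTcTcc
CCW12, Slf1, chrXII:369743-369802, reverse strand: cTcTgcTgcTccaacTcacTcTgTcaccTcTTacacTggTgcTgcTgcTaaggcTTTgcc
TPI1, Slf1, chrIV:556155-556199, reverse strand: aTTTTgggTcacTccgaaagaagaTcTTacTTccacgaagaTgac
TPI1, Sro9, chrIV:556184-556223, reverse strand: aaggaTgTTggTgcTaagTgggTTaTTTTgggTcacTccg

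After H2O2 the mRNAs with the most Slf1 reads were OLA1, RPS0A, TSA1, TEF1 and VAS1, and those with the most Sro9 reads were RPS0A, TSA1, RPS20, SOD2 and PGK1. Relative to Sro9, the Slf1 shares were larger on OLA1, on the cell wall mRNA CCW12 and on glycolytic mRNAs such as TPI1, PDC1 and TDH3, and smaller on RPS0A, RPS20, SOD2 and PGK1. The quasi-likelihood test of edgeR, adjusted by Benjamini-Hochberg, called 0 of 338 mRNAs at an adjusted p under 0.05 (0.0%), the smallest adjusted p being 0.0685. At an unadjusted p under 0.05 the fit had 26 mRNAs with a positive and 52 with a negative log2 difference, and DESeq2 called 15 higher and 73 lower in Slf1. The directions below are therefore descriptions of 2 libraries against 2. DESeq2 scaled the libraries by its own size factors and not by the mRNA cluster reads, so its calls are not tests of the share itself. Of the mRNAs named here, it called OLA1, CCW12, VAS1, PDC1, RPS10B, RPS21B, RPP1A, JEN1, SGA1, PML39 and RET1 higher. It called lower RPS0A, RPS20, SOD2, PGK1, TIF1, CPR1, TCP1, GCD11, RPL1B, RPS0B, SRV2, BMH1, WTM1, ILV6, GCN4, TKL1, HSP82 and RPL17A.

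Without a call, the plainest description is whether the shares overlap. Both Slf1 shares lay above both Sro9 shares for 60 mRNAs (17.8% of those tested) and below them for 138 mRNAs (40.8%). At least 2-fold separated the nearest Slf1 and Sro9 libraries for 35 of the 60 (10.4% of those tested) and for 80 of the 138 (23.7%). Of those 80 mRNAs, 34 had no kept cluster in either Slf1 library. The median log2 ratio of the mean shares was -0.47 over all tested mRNAs, with libraries that had no kept cluster set to 5 reads, and 0.26 over the 164 mRNAs with kept clusters in all 4 libraries. The Slf1 reads were also gathered on fewer mRNAs, since the 10 most read mRNAs held 33.4% and 44.8% of the Slf1 reads and 17.2% and 20.8% of the Sro9 reads.

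**Figure D1:**
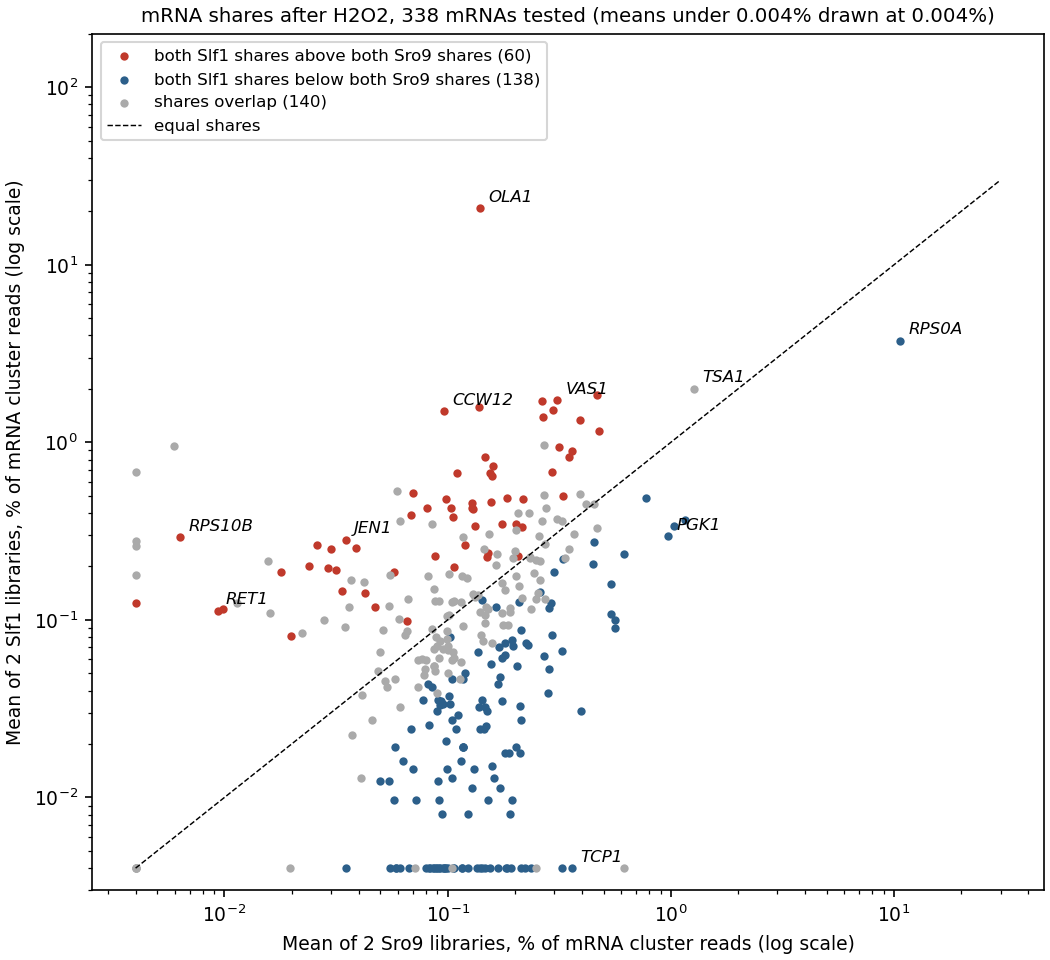
Mean share of each of the 338 tested mRNAs in the 2 Slf1 libraries (vertical, % of mRNA cluster reads, log scale) against the 2 Sro9 libraries (horizontal, same unit), with means under 0.004% drawn at 0.004% and the dashed line at equal shares. OLA1 stands alone at the top left of the diagonal, RPS0A lies furthest right and below the line, and the row of points at the bottom are mRNAs with no kept Slf1 cluster.

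OLA1 (YBR025C, chrII:290681-291865, reverse strand, 1 exon), which encodes an Obg-like ATPase, held 16.6% and 25.1% of the Slf1 reads, against 0.158% and 0.120% of the Sro9 reads. The groups did not overlap, and the log2 difference was 7.23 ± 1.31 (SE, edgeR adjusted p = 0.0685), or 150-fold on the mean shares. In untreated cells its shares were 1.26% and 1.89% for Slf1, against 1.49% and 0.126% for Sro9, which do overlap. In total RNA of H2O2-treated WT cells OLA1 had 425 and 179 CPM over protein-coding genes. The 8 tagged-strain total RNA libraries, which pool both strains and both conditions, had between 332 and 549. The second WT library had the lower value for every mRNA whose WT level is printed here, including TSA1 (4425 and 1241 CPM) and TDH3 (20511 and 6704). The cause was not tested, so WT levels are not compared with those of the tagged strains. The part of the mRNA level in the difference of the shares was not tested.

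The OLA1 reads of the LARPs also differed in their conversions and their place. In the Slf1 libraries 5170 and 5040 OLA1 reads carried 106 and 64 conversions, against 350 conversions on 411 reads and 179 on 236 in the Sro9 libraries. The main Slf1 cluster, with its mode 833 nt into the 1185 nt ORF in both libraries, had 14 conversions on 2701 reads and 4 on 2774. The main Sro9 cluster, with its mode 933 nt into the ORF, had 196 conversions on 213 reads and 119 on 143. The printed Slf1 site holds 8 thymines in 46 nt and the printed Sro9 site 14 in 33 nt. Counted as conversion events instead of reads, OLA1 held 0.539% and 0.601% of the Slf1 events, against 0.159% and 0.114% of the Sro9 events. With only clusters of at least 0.25 conversions per read, its shares were 0.128% and 0 for Slf1, against 0.162% and 0.124% for Sro9, which overlap, with the smaller mean for Slf1. Low conversion on OLA1 was not limited to Slf1, because the Sro9 untreated library with the OLA1 share of 1.49% had 291 conversions on 3861 OLA1 reads. Whether these reads come from crosslinked RNA was not tested.

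**Figure D2:**
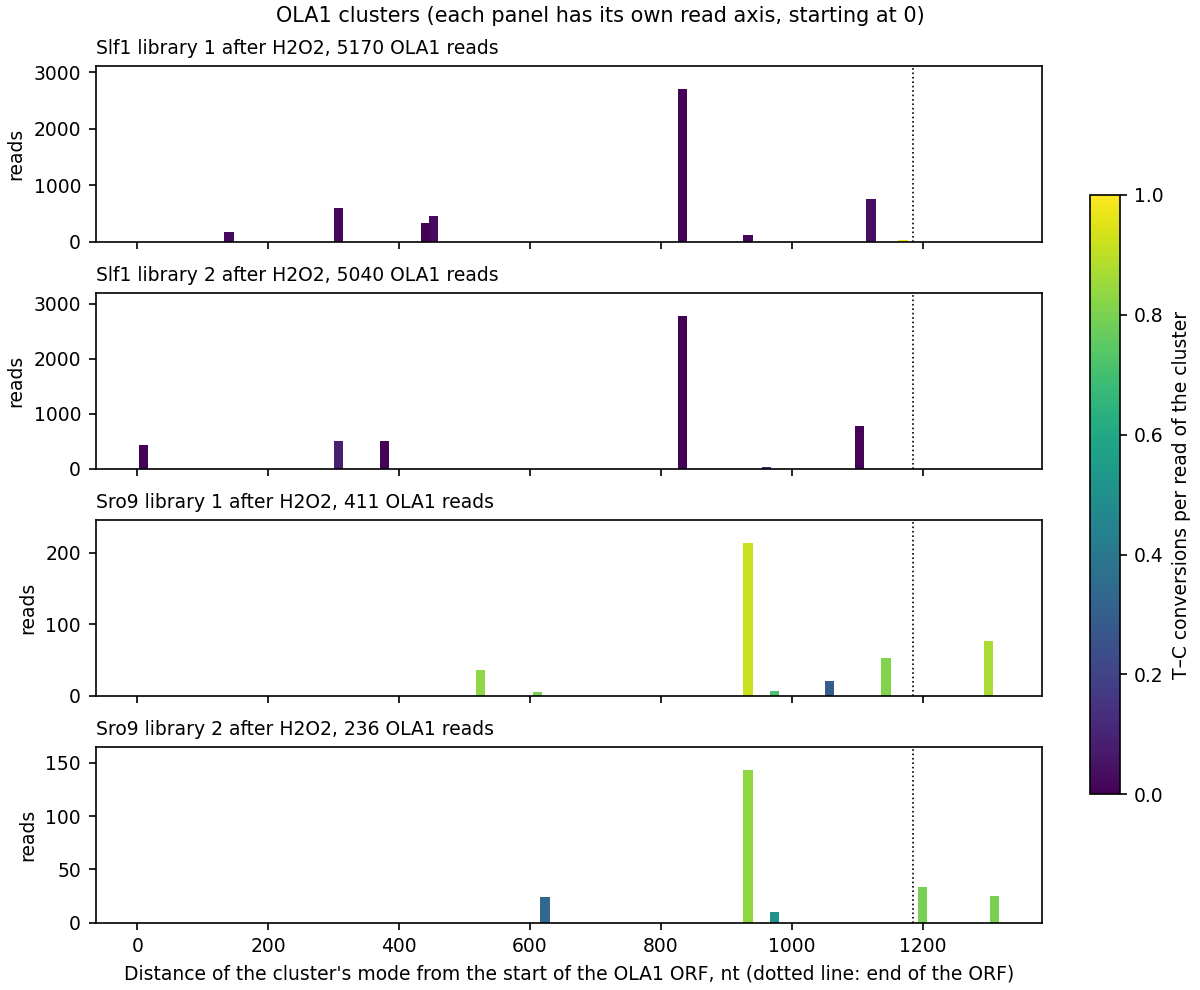
Reads of each OLA1 cluster (vertical, with an axis for each panel that starts at 0) by the distance of its mode from the start of the ORF in nt, in the 2 Slf1 libraries (upper panels) and the 2 Sro9 libraries (lower panels), coloured by T–C conversions per read. The dark Slf1 bars at 833 nt have almost no conversions, and the light Sro9 bars at 933 nt have nearly 1 per read.

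Conversions differed between the LARPs over the whole libraries. All mRNA clusters together had 0.634 and 0.531 conversions per read for Slf1, against 0.848 and 0.801 for Sro9, and without OLA1 0.756 and 0.705 against 0.848 and 0.801. Clusters with under 0.1 conversions per read held 19.2% and 30.2% of the Slf1 reads, against 1.66% and 1.2% of the Sro9 reads, and without OLA1 3.20% and 7.0% of the Slf1 reads, against 1.67% and 1.2% of the Sro9 reads. For the 286 tested mRNAs with kept clusters of both LARPs, the median was 0.673 conversions per read for Slf1 and 0.811 for Sro9. The 59 of them with both Slf1 shares above both Sro9 shares had medians of 0.644 and 0.802, and the 99 with both below had 0.714 and 0.808. Under 0.25 conversions per read were seen with Slf1 for 13 of the 286 mRNAs and with Sro9 for 1. Their part in the differences of share was not tested beyond the alternatives given here.

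**Figure D3:**
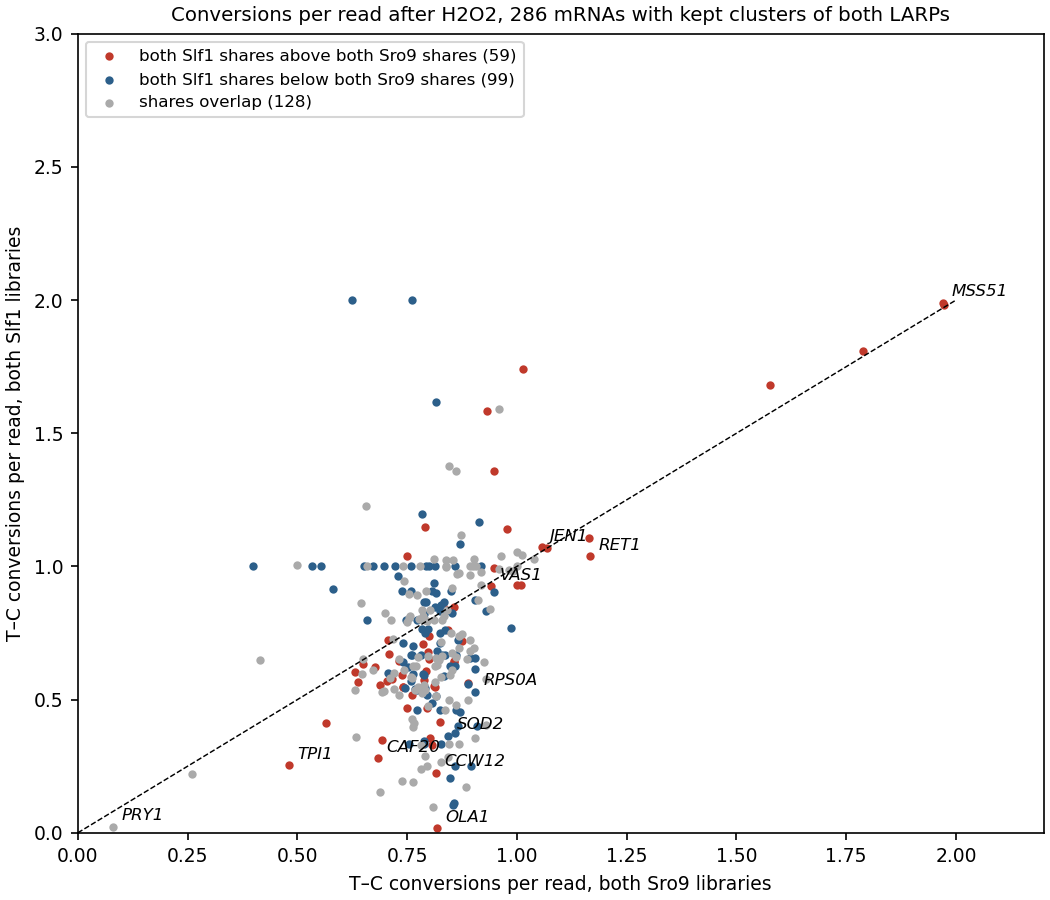
T–C conversions per read of each tested mRNA with kept clusters of both LARPs, Slf1 (vertical) against Sro9 (horizontal), coloured by whether the shares overlap, with the dashed line at equal values. The Slf1 value is below the Sro9 value for 186 of 286 mRNAs, OLA1 lies lowest, and CCW12, CAF20 and TPI1 are also low for Slf1.

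CCW12 (YLR110C, chrXII:369697-370098, reverse strand), a mannoprotein of the cell wall, held 0.873% and 2.13% of the Slf1 reads, against 0.112% and 0.0804% of the Sro9 reads. Its log2 difference was 3.97 ± 0.69 (SE, edgeR adjusted p = 0.0685), with no overlap of the groups, and it was among the mRNAs that DESeq2 called. The most read sites were placed differently. The Sro9 reads of CCW12 formed 1 cluster in each library, after the stop codon, whereas the most read Slf1 clusters lay in the ORF, with modes 186 and 346 nt into its 402 nt. Slf1 also had a kept cluster at the Sro9 site, of 35 and 52 reads, which are 12.9% and 12.1% of the CCW12 reads. Over all its clusters CCW12 had 0.226 conversions per read for Slf1, against 0.815 for Sro9. Its level was between 4143 and 10287 CPM in the tagged-strain total RNA libraries, and 3703 and 1585 CPM in WT total RNA after H2O2. With only clusters of at least 0.25 conversions per read the CCW12 shares were 1.16% and 0.434% for Slf1, against 0.114% and 0.0828% for Sro9, still without overlap.

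VAS1 (YGR094W, chrVII:672186-675500, forward strand), the valyl-tRNA synthetase, held 1.97% and 1.48% of the Slf1 reads, against 0.287% and 0.334% of the Sro9 reads (log2 difference 2.47 ± 0.52, SE, edgeR adjusted p = 0.0766). Its level was between 771 and 1292 CPM in the tagged-strain total RNA libraries, and 479 and 201 CPM in WT total RNA after H2O2. Its shares in untreated cells were close to these, 1.80% and 1.32% for Slf1, against 0.286% and 0.360% for Sro9. The main site was the same for both LARPs, 1890 nt into the 3315 nt ORF, and the cluster was shorter for Slf1. It spanned 17 nt with 551 conversions on 604 reads in library 1, and for Sro9 31 nt with 584 conversions on 614 reads in library 1. The read numbers at the site were thus alike in libraries of 31052 and 259927 mRNA cluster reads. With only clusters longer than 20 nt the order turned, at 0.0285% and 0 for Slf1, against 0.315% and 0.375% for Sro9.

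Several of the mRNAs with the largest ratios shared this form, a short cluster with about 1 conversion per read and like numbers of reads for both LARPs. JEN1, the lactate permease, had a 14 nt cluster at the same bases in all 4 libraries, with 111 and 42 reads for Slf1 and 84 and 74 for Sro9. SGA1, a glucoamylase of sporulating cells, had 48 and 50 reads for Slf1 and 59 and 49 for Sro9. DIT1, an enzyme of spore wall formation, had 74 and 53 reads for Slf1 and 69 and 66 for Sro9. RET1, a subunit of RNA polymerase III, had 22 and 31 reads for Slf1 and 22 and 20 for Sro9. PML39, a nuclear pore-associated protein, had 43 and 78 reads for Slf1 and 34 and 76 for Sro9, the cluster of 34 reads being 23 nt long and the others 16 nt. Because the libraries differ in depth, these like read numbers become log2 differences of 3.02 ± 0.89 for JEN1, 3.08 ± 1.07 for SGA1, 3.06 ± 1.94 for DIT1, 3.58 ± 1.29 for RET1 and 3.34 ± 1.17 for PML39 (SE, edgeR adjusted p from 0.130 to 0.433).
JEN1, chrXI:23673-23686, forward strand: TgcagagTTggccc
SGA1, chrIX:178732-178748, forward strand: TgTacgTTgggaccTga
DIT1, chrIV:1275500-1275515, forward strand: TaccTggTgTTgacgc
RET1, chrXV:733109-733125, reverse strand: TTTgacTccgccTcaTg
PML39, chrXIII:56011-56026, reverse strand: gaTcTTcgggccTTgT

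These sequences of the most read Slf1 clusters are shown for their shortness, with thymines again in capitals, and each occurs 1 time in the genome. In WT total RNA after H2O2 JEN1 had 10.4 and 5.89 CPM, SGA1 20.5 and 6.8, DIT1 11.2 and 3.17, PML39 14.2 and 4.08, and RET1 41.1 and 20. Of the 338 tested mRNAs, 18 had at least 90% of their reads in clusters of up to 20 nt in both Slf1 libraries, and 12 of these 18 were among the 35 mRNAs with Slf1 shares at least 2-fold above the Sro9 shares. In all 4 libraries this held for 6 mRNAs, with 386 and 246 reads in sum for Slf1 and 380 and 337 for Sro9. With only clusters longer than 20 nt, 47 mRNAs had Slf1 shares above both Sro9 shares, 44 of them among the 60. The origin of the short clusters was not tested.

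Apart from the list that holds OLA1, the glycolytic and fermentation mRNAs had the largest excess of summed share in Slf1 among the 17 lists. The 21 members summed to 9.20% and 9.88% of the Slf1 reads, against 4.49% and 4.91% of the Sro9 reads, and to 10.9% and 11.3% for Slf1, against 5.02% and 4.93% for Sro9, without H2O2. Of the 18 tested members, 0 were called by edgeR, 8 had Slf1 shares above both Sro9 shares and 4 had them below (17.8% above and 40.8% below over all tested mRNAs), and the median log2 ratio was 0.71, against -0.47 over all tested mRNAs. The sum stayed above that of Sro9 under each of the 5 alternatives run for the lists.

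TPI1 (YDR050C), triose phosphate isomerase, had 1.70% and 1.44% of the Slf1 reads, against 0.252% and 0.0244% of the Sro9 reads, with a log2 difference of 3.51 ± 1.21 (SE, edgeR adjusted p = 0.165). Its main Slf1 cluster and the main cluster of Sro9 library 1 overlapped in sequence and were both low in conversions, 66 on 453 reads for Slf1 and 66 on 363 for Sro9. PDC1 (YLR044C), the major pyruvate decarboxylase, had 1.5% and 1.55% of the Slf1 reads, against 0.251% and 0.341% of the Sro9 reads (log2 2.36 ± 0.66, edgeR adjusted p = 0.106). It was also among the 15 mRNAs that DESeq2 called higher. TDH3 (YGR192C), the main glyceraldehyde-3-phosphate dehydrogenase, had 0.596% and 2.17% of the Slf1 reads, against 0.335% and 0.201% of the Sro9 reads (log2 2.37 ± 0.77, edgeR adjusted p = 0.165). TDH3 has a close copy, TDH2, and reads may be split between them.

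Not all of the pathway went this way. PGK1 (YCR012W), phosphoglycerate kinase, had 0.306% and 0.284% of the Slf1 reads, against 1.21% and 0.727% of the Sro9 reads (log2 difference -1.72 ± 0.59, SE, edgeR adjusted p = 0.165). In untreated cells its shares were 0.898% and 1.25% for Slf1 and 0.727% and 1.38% for Sro9, which overlap. Its most read Sro9 cluster lay after the stop codon and held 70.7% and 62.2% of the PGK1 reads, and Slf1 clusters at the same place held 33.7% and 31.6%. With the ORF only the PGK1 shares were 0.222% and 0.211% for Slf1, against 0.394% and 0.301% for Sro9, which is closer. PDC5, the minor pyruvate decarboxylase and a member named after its values were seen, had a log2 ratio of -2.33, opposite in sign to its paralogue PDC1.

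**Figure D4:**
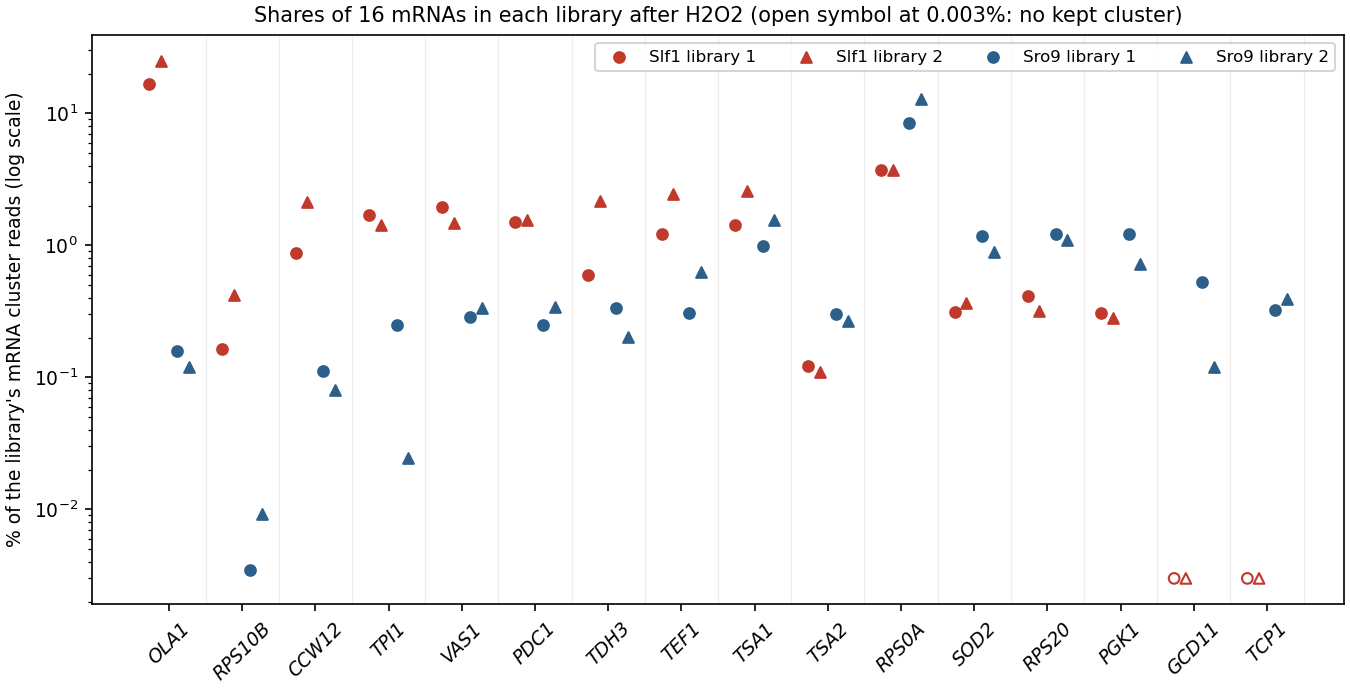
Shares of 16 mRNAs in each library after H2O2 (vertical, % of mRNA cluster reads, log scale), with Slf1 libraries in red to the left of the Sro9 libraries in blue, circles for library 1 and triangles for library 2, and open symbols at 0.003% where there was no kept cluster. The red symbols lie above the blue from OLA1 to TEF1, mix with them at TSA1, and lie below them from TSA2 to TCP1.

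RPS0A (YGR214W, chrVII:920575-921788, forward strand), a protein of the small ribosomal subunit, was the most read mRNA of Sro9, at 8.51% and 12.9% of its reads, and the next after OLA1 for Slf1, at 3.75% and 3.73%. The groups did not overlap, with a log2 difference of -1.52 ± 0.54 (SE, edgeR adjusted p = 0.167). The difference was the same way in untreated cells, with 5.75% and 5.79% for Slf1, against 16.1% and 8.72% for Sro9. Nearly all of the RPS0A reads came from the site printed above, 97.1% and 100% for Slf1, against 98.4% and 99.2% for Sro9, with modes 165 to 167 nt into the ORF in all 4 libraries. Slf1 had 0.530 conversions per read on RPS0A and Sro9 0.906. Its paralogue RPS0B had no kept cluster in either Slf1 library, against 0.195% and 0.249% of the Sro9 reads.

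The 57 mRNAs for proteins of the small ribosomal subunit summed to 11.4% and 11.2% of the Slf1 reads, against 15.6% and 21.2% of the Sro9 reads. The order turned when OLA1 and RPS0A were both left out of the totals: the other members summed to 9.67% and 10.5% for Slf1, against 7.77% and 9.57% for Sro9. Of the 49 tested members, 0 were called by edgeR, 11 had Slf1 shares above both Sro9 shares and 18 below (17.8% above and 40.8% below over all tested mRNAs), with a median log2 ratio of -0.47, the same as over all tested mRNAs. RPS20 (YHL015W) had 0.415% and 0.319% of the Slf1 reads, against 1.22% and 1.10% of the Sro9 reads (log2 difference -1.66 ± 0.63, SE, edgeR adjusted p = 0.174). RPS6A (YPL090C) had 0.374% and 0.972% of the Slf1 reads, against 0.180% and 0.130% of the Sro9 reads (log2 difference 2.12 ± 0.72, SE, edgeR adjusted p = 0.165).

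RPS10B and RPS21B stood at the far end of the same list. RPS10B (YMR230W) had 51 and 84 reads for Slf1, against 9 and 18 for Sro9, which are 0.164% and 0.419% against 0.00346% and 0.00916% (log2 difference 5.51 ± 1.97, SE, edgeR adjusted p = 0.167). In untreated cells the order was the other way, with 0 and 40 reads for Slf1, against 330 and 346 for Sro9. RPS21B (YJL136C) was the single mRNA of those tested with clusters in both Slf1 libraries and none in either Sro9 library. It had 20 and 37 reads for Slf1, which is 55.7-fold higher with each Sro9 library set to 5 reads. That value leaves out any reads in clusters that were not kept. For RPS10B the Slf1 cluster of both libraries had its mode 253 nt into the 318 nt ORF, where no Sro9 cluster was kept.

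The 76 mRNAs for proteins of the large subunit summed to 9.03% and 9.66% for Slf1 and 9.53% and 10.8% for Sro9, which overlap. Of 63 tested members, 0 were called by edgeR, 11 had Slf1 shares above both Sro9 shares and 27 below (17.8% above and 40.8% below over all tested mRNAs), with a median log2 ratio of -0.37. RPL1B and RPL17A had no kept Slf1 cluster, against 0.257% and 0.218% of the Sro9 reads for RPL1B and 0.125% and 0.160% for RPL17A. The most read Sro9 cluster of RPL1B, of 395 reads, occurs 2 times in the genome, so its reads cannot be placed on RPL1B alone. RPL23B had 0.567% and 0.802% of the Slf1 reads, against 0.267% and 0.322% of the Sro9 reads (log2 1.22 ± 0.91, edgeR adjusted p = 0.524). RPL39 had 0.167% and 0.633% for Slf1 and 0.247% and 0.168% for Sro9, which overlap. Among the 5 stalk protein mRNAs, whose sums overlapped, RPP2A had 0.148% and 0.458% for Slf1 and 0.398% and 0.341% for Sro9, and RPP1A had 0.216% and 0.154% for Slf1, against 0.0165% and 0.0193% for Sro9 (log2 3.36 ± 1.17, edgeR adjusted p = 0.165).

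The 37 antioxidant mRNAs held 5.89% and 7.39% of the Slf1 reads and 5.75% and 5.84% of the Sro9 reads, against 1.04% and 1.13% for Slf1 and 1.44% and 1.34% for Sro9 without H2O2. Of the 13 tested, 0 were called by edgeR, 2 had Slf1 shares above both Sro9 shares and 3 below (17.8% above and 40.8% below over all tested mRNAs), with a median log2 ratio of 0.12. How far the sums lay apart after H2O2 depended on the setting. They were 7.58% and 12% for Slf1, against 5.82% and 6.01% for Sro9, with at least 0.25 conversions per read, and 7.40% and 10.4%, against 6.30% and 6.72%, in totals without OLA1 and RPS0A. With at least 20 reads per cluster the sums overlapped, at 6.51% and 7.65% for Slf1 and 6.95% and 7.02% for Sro9. With the ORF only they overlapped too, at 6.07% and 8.01% for Slf1 and 6.48% and 6.36% for Sro9. The order turned when clusters had to pass the same share in every library, at 5.88% and 7.39% for Slf1, against 8.72% and 8.10% for Sro9.

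TSA1 (YML028W), the main cytosolic peroxiredoxin, was among the 5 most read mRNAs of both LARPs. It had 1.42% and 2.60% of the Slf1 reads and 0.987% and 1.56% of the Sro9 reads, which overlap (log2 difference 0.66 ± 0.58, SE, edgeR adjusted p = 0.591). TRR1 (YDR353W), thioredoxin reductase, had 0.857% and 1.02% of the Slf1 reads, against 0.212% and 0.419% of the Sro9 reads (log2 1.57 ± 0.89, edgeR adjusted p = 0.376). SOD2 (YHR008C), the mitochondrial superoxide dismutase, had 0.312% and 0.364% of the Slf1 reads, against 1.17% and 0.898% of the Sro9 reads (log2 -1.61 ± 0.61, edgeR adjusted p = 0.174). TSA2 (YDR453C), a stress-inducible peroxiredoxin, had 0.122% and 0.110% of the Slf1 reads, against 0.300% and 0.269% of the Sro9 reads (log2 -1.29 ± 1.78, edgeR adjusted p = 0.765). The shares of TRR1, SOD2 and TSA2 did not overlap between the LARPs. Those of GRX2 (0.444% and 0.568% for Slf1, 0.469% and 0.0717% for Sro9), TRX2 (0.486% and 0.419% for Slf1, 0.601% and 0.233% for Sro9) and SOD1 (0.377% and 0.209% for Slf1, 0.0204% and 0.214% for Sro9) did.

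The pentose phosphate pathway, which supplies NADPH to the thioredoxin and glutathione systems, had smaller summed shares with Slf1. Its 11 members summed to 0.180% and 0.0698% of the Slf1 reads, against 0.704% and 0.709% of the Sro9 reads. TKL1, transketolase, had no kept Slf1 cluster, against 407 and 298 Sro9 reads, but when clusters had to pass the same share in every library it had none left in Sro9 library 1 either and 0.0498% in Sro9 library 2. ZWF1, glucose-6-phosphate dehydrogenase, which was below the minimum share for the test, also had no kept Slf1 cluster, against 357 and 271 Sro9 reads. GND1, 6-phosphogluconate dehydrogenase, had 56 and 14 Slf1 reads and 728 and 587 Sro9 reads, a log2 difference of -1.20 (edgeR adjusted p = 0.502).

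Translation factor mRNAs went both ways. Those of initiation summed to 0.609% and 0.977% for Slf1, against 1.58% and 1.10% for Sro9, and of the 7 tested 0 were called by edgeR, 1 had Slf1 shares above both Sro9 shares and 6 below (17.8% above and 40.8% below over all tested mRNAs). That 1 was CAF20 (YOR276W), which encodes an inhibitor that binds the cap-binding factor, with 0.386% and 0.952% of the Slf1 reads, against 0.135% and 0.0860% of the Sro9 reads (log2 2.60 ± 0.95, edgeR adjusted p = 0.174). Its 191 reads in Slf1 library 2 held 6 conversions, and with clusters of at least 0.25 conversions per read it had no reads left there. GCD11, the gamma subunit of initiation factor eIF2, had no kept Slf1 cluster after H2O2, against 1382 and 236 Sro9 reads, but its Sro9 reads had 0.119 conversions each. TIF1, a gene for the helicase eIF4A, had 11 and 0 Slf1 reads, against 484 and 375 Sro9 reads. The initiation sums overlapped with at least 20 reads per cluster, at 0.579% and 1.03% for Slf1 and 1.53% and 0.879% for Sro9. They also overlapped with the same minimum share per cluster in every library, at 0.634% and 0.977% for Slf1 and 1.37% and 0.641% for Sro9. For elongation and termination the sums overlapped, with 3.81% and 4.92% for Slf1 and 2.78% and 3.97% for Sro9. Of the 9 tested members, 0 were called by edgeR. Slf1 shares lay above both Sro9 shares for 2 and below for 5 (17.8% above and 40.8% below over all tested mRNAs). The median log2 ratio of the 9 was -1.06, against -0.47 over all tested mRNAs. The 2 above were TEF1 and TEF2. TEF1, elongation factor 1A, had 1.23% and 2.47% of the Slf1 reads, against 0.305% and 0.632% of the Sro9 reads (log2 1.98 ± 0.75, edgeR adjusted p = 0.174), and TEF2, a copy of the same protein whose reads cannot be fully told apart, had 1.18% and 1.5% against 0.251% and 0.533%.

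**Figure D5:**
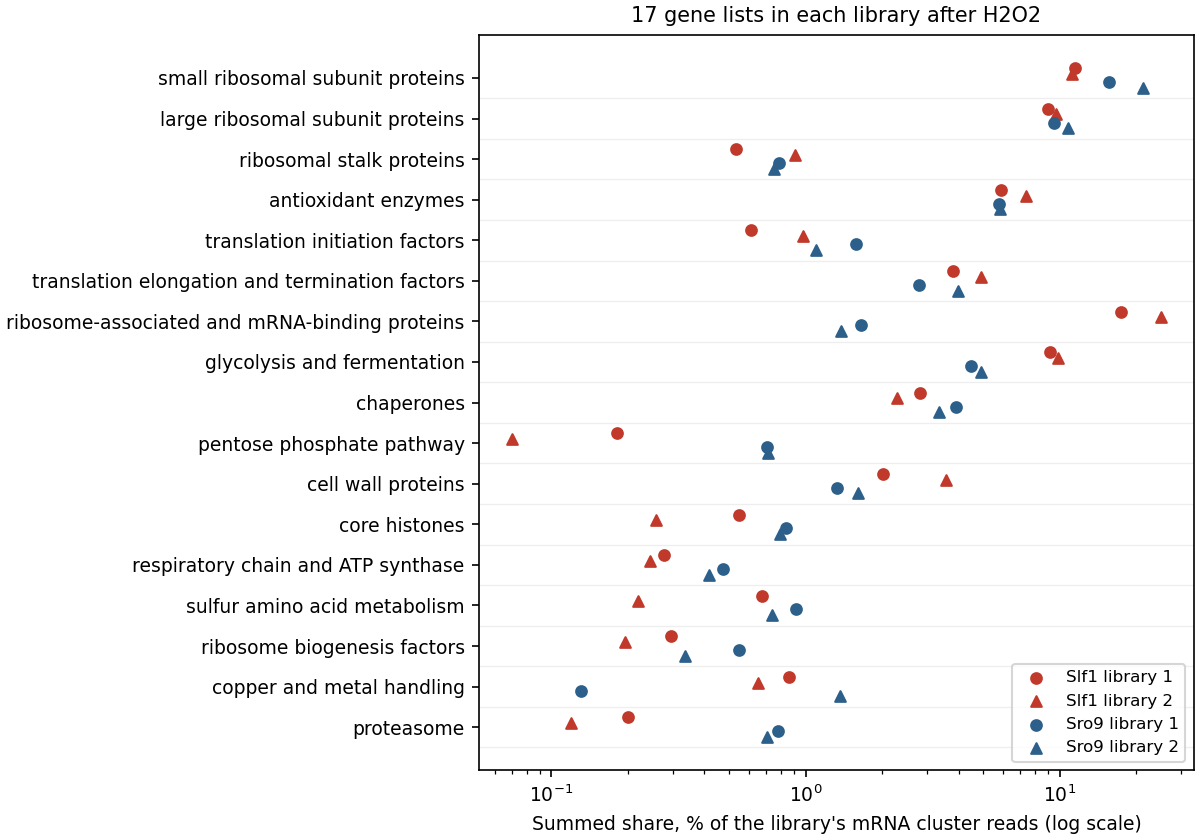
Summed share of each of the 17 gene lists (horizontal, % of mRNA cluster reads, log scale) in the 2 Slf1 libraries (red) and, below them in each row, the 2 Sro9 libraries (blue), circles for library 1 and triangles for library 2. The glycolysis and fermentation sums are near 9% to 10% for Slf1 and under 5% for Sro9, and the list with OLA1 (ribosome-associated and mRNA-binding proteins) shows the widest gap.

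Of the remaining lists, cell wall proteins summed to 2.02% and 3.58% for Slf1, against 1.32% and 1.61% for Sro9, led by CCW12 and CWP2. CCW12 alone held 0.873% and 2.13% of the Slf1 reads, against 0.112% and 0.0804% of the Sro9 reads. The members of the list went both ways. Of the 8 tested, 0 were called by edgeR. Slf1 shares lay above both Sro9 shares for 3 and below for 4 (17.8% above and 40.8% below over all tested mRNAs). The median log2 ratio of the 8 was -0.75, against -0.47 over all tested mRNAs. Chaperones summed to 2.82% and 2.28% for Slf1, against 3.91% and 3.35% for Sro9, and among them HSP42 had 0.721% and 0.932% for Slf1, against 0.357% and 0.339% for Sro9, while HSP82 had no kept Slf1 cluster, against 391 and 285 Sro9 reads. Core histones summed to 0.547% and 0.259% for Slf1, against 0.839% and 0.791% for Sro9, and proteasome subunits to 0.200% and 0.120%, against 0.777% and 0.703%. With the same minimum share per cluster in every library the proteasome sums overlapped, at 0.188% and 0.120% for Slf1 and 0.111% and 0.360% for Sro9. Respiratory chain, sulfur amino acid and ribosome biogenesis mRNAs each summed to under 1% in every library and were smaller in both Slf1 than in both Sro9 libraries, but with that minimum the respiratory sums overlapped (0.225% and 0.244% for Slf1, 0.296% and 0.240% for Sro9) and the order of the biogenesis sums turned (0.288% and 0.194% for Slf1, against 0.128% and 0.0437% for Sro9). Copper and metal handling mRNAs summed to 0.860% and 0.653% for Slf1 and 0.131% and 1.36% for Sro9, which overlap. The list of ribosome-associated and mRNA-binding proteins summed to 17.5% and 25.1% for Slf1, against 1.65% and 1.38% for Sro9, a gap made by OLA1, and in totals without OLA1 and RPS0A the difference of the mean sums was -1.01 percentage points.

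In all, 48 of the 338 tested mRNAs had no kept cluster in either Slf1 library after H2O2, and 5 had none in either Sro9 library. The 12 with the largest fitted difference in that direction were TCP1, GCD11, RPL1B, RPS0B, SRV2, BMH1, WTM1, ILV6, GCN4, TKL1, HSP82 and RPL17A. For RPL1B the most read Sro9 cluster occurs 2 times in the genome, so its placing is uncertain. With each Slf1 library set to 5 reads, the Slf1 share was 17.6-fold lower for TCP1 and 6.97-fold lower for RPL17A. The TCP1 value came mostly from a site after the stop codon, with 757 and 725 of the Sro9 reads, and with the ORF only its Sro9 shares were 0.0424% and 0.0300%. TCP1, a subunit of the cytosolic chaperonin, had 848 and 776 Sro9 reads and also had no kept Slf1 cluster in untreated cells, and DESeq2 called it lower. SRV2, the adenylate cyclase-associated protein, had 661 and 334 Sro9 reads and likewise none for Slf1 in either condition. The other 10 all had kept Slf1 clusters in at least 1 untreated library. Reads spread over many weak sites would fall under the 5-read minimum in the shallower Slf1 libraries, so the floor covers reads at 1 site only. It also leaves out clusters dropped for their conversions or length. When a cluster in any library had to hold the share that 5 reads have in the shallowest, 29 of the 48 still had a cluster in both Sro9 libraries and 7 in neither, and over all tested mRNAs 55 had Slf1 shares above and 116 below both Sro9 shares.

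The sites of the LARPs were partly shared. Of the Slf1 clusters on mRNAs, 42.0% and 41.6% had their mode within 10 nt of an Sro9 mode of either library, and in the other direction 4.35% and 5.69% of the Sro9 clusters had an Slf1 mode that near. Against Sro9 library 1 and library 2 alone, the values were 27.1% and 30.1% for Slf1 library 1 and 30.7% and 30.4% for Slf1 library 2. The comparison between replicates likewise takes a single library each time, and the Sro9 libraries hold far more clusters than the Slf1 libraries. Between replicates of a LARP, 11.9% of the 1005 Slf1 clusters of library 1 had a mode of library 2 within 10 nt and 29.7% of the 404 of library 2 one of library 1, and for Sro9 these shares were 26.5% of 7915 and 32.4% of 6485. Taking only the most read cluster of each tested mRNA, the modes lay within 10 nt for 19.7% to 27.9% of mRNAs between an Slf1 and an Sro9 library, for 30.7% of 166 between the Slf1 libraries and for 34.4% of 320 between the Sro9 libraries. Clusters after the stop codon held 8.66% and 7.74% of the Slf1 mRNA reads, against 17.5% and 13.5% of the Sro9 reads. Within the ORF 28.6% and 28.7% of the Slf1 clusters and 31.8% and 31.3% of the Sro9 clusters lay in the final 20% of its length, against 12.4% and 13.4% for Slf1 and 13.2% and 13.8% for Sro9 in its opening 20%.

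The ratio between the LARPs after H2O2 resembled that in untreated cells. Over the 131 tested mRNAs with kept clusters in all 8 libraries, the log2 ratios in the 2 conditions had a Pearson correlation of 0.61 and a Spearman correlation of 0.63, which share no library but share the strains and mRNAs. In comparison, the log2 shares of the 164 mRNAs with clusters in all 4 libraries after H2O2 had a Pearson correlation of 0.61 between the Slf1 libraries, 0.61 between the Sro9 libraries and 0.11 to 0.39 between a library of each. The log2 ratio had a Spearman correlation of 0.01 with WT total RNA per length and 0.03 with coding length over these 164. In untreated cells both Slf1 shares lay above both Sro9 shares for 73 mRNAs (21.6%) and below for 93 (27.5%). Of the 60 above after H2O2, 32 were above in untreated cells and 2 below, and of the 138 below, 53 were below and 17 above. The difference between the conditions, tested as an interaction in edgeR, was called for 0 of 338 mRNAs (smallest adjusted p 0.183), with 35 at an unadjusted p under 0.05, whereas DESeq2 called 38.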

How the data were processed

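PAR-CLIP clusters and total RNA were deposited as tables. Per the labels and the methods, the authors trimmed reads with Trim Galore, mapped them with Bowtie 1.2.0 (sacCer3, R64) to up to 10 places, and ran PARalyzer on each library. Its deposited values used here are counts of reads and conversions. Each cluster also holds a deposited fraction, the score at the mode, which was not used. Total RNA values are the authors' featureCounts counts, given here as CPM over protein-coding genes. The tagged total RNA libraries were used only as a range, because labels and file names conflict.

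Cluster sequences were checked against R64, and counts per mRNA entered edgeR 4.0.16 under R 4.3.3 (quasi-likelihood, 8 libraries in 4 groups, library size the mRNA cluster reads, 4 residual degrees of freedom). DESeq2 1.42.0, with its own size factors, was an alternative. Other steps used Python 3.11.15, numpy 2.4.6, pandas 2.3.3 and scipy 1.17.1. SEs are the log2 difference over the square root of the F statistic. A replicate is a separate culture of 1 strain.

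On simulated counts with the spread of these libraries (biological coefficient of variation 0.957), among 320 mRNAs the test recovered 0 of 33 changed by a log2 of 2, 12 of 33 by 4 and 24 of 35 by 6, with 2 false among 38 calls. Its power was thus low.

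Members and lists were chosen with earlier results of these data known. Named mRNAs were the 12 largest log2 differences each way (past the threshold, otherwise without overlap), the 5 most read per LARP, 7 mRNAs named in the paper, mRNAs with clusters in both Slf1 and neither Sro9 library, and leading members of the 17 lists. Ratios set libraries without a kept cluster to 5 reads. Alternatives changed the scaling, tool, filter, libraries, placing, distance and cluster minimum.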

Additional observations from a re-analysis of the deposited data

Results flagged for a closer look

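For 19 mRNAs both Slf1 shares lay on one side of both Sro9 shares after H2O2 and on the other side in untreated cells. With edgeR and Benjamini-Hochberg adjustment the interaction was not past the threshold for any of them (adjusted p from 0.183 to 0.878). The values below are log2 ratios of the mean shares, Slf1 over Sro9, after H2O2 and then in untreated cells.

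RPS10B, a small subunit protein, had 5.53 after H2O2 and -1.16 untreated, and RPL33B, of the large subunit, 0.58 and -0.90. The other 17 mRNAs were below Sro9 after H2O2. Of ribosomal protein mRNAs, RPL29 had -1.89 and 1.03, RPL43A -1.28 and 3.64, and RPS15 -1.60 and 0.41. Of cell wall and secreted proteins, BGL2 had -1.39 and 1.13, HSP150 -1.27 and 1.74, and SED1 -1.18 and 1.19. The chaperone HSP104 had -1.04 and 0.88, and the prolyl isomerase CPR1 -0.68 and 1.26. ADH2 had -0.73 and 0.74, GPP2 -1.93 and 0.91, NCE102 -0.58 and 2.15, and YNL134C -0.68 and 2.30.

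The floor of 5 reads per library also enters some of the values above after H2O2. BGL2, GPP2, HSP104, RPL29, RPS15 and SED1 had no kept cluster in Slf1 library 2. RPL43A had none in Slf1 library 1 and 5 reads in library 2. The remaining 5 mRNAs had no kept Slf1 cluster in either library after H2O2, so that their value there is set by the floor. They were MAE1 with -1.42 and 1.49, MFA2 with -1.51 and 0.39, PAC10 with -2.0 and 1.28, RPS28B with -2.07 and 1.51, and RRP43 with -1.71 and 1.03.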

How the results depend on the processing

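The call count of 0 depended on the setting. Higher and lower calls numbered 15 and 73 with DESeq2, 3 and 4 with a mean share of at least 0.1%, 16 and 20 with no filter, 1 and 0 with only the 4 libraries after H2O2, and 4 and 48 with at least 20 reads per cluster. Leaving out 1 library gave 0 to 10 higher and 0 to 77 lower, the largest without Slf1 H2O2 replicate 1, where the lone library is assumed to vary like the rest. The replicate block gave 0 and 0. Same-numbered libraries did not deviate together (correlation -0.00 between Slf1 and Sro9 after H2O2), and at -0.31 between Sro9 after H2O2 and untreated, crossed numbers also gave 0. The interaction had 38 calls with DESeq2 and 14 with no filter, and the untreated comparison 24 and 12. The cause was not tested. Within 5 nt and 20 nt, 33.0% and 55.6% of Slf1 clusters had an Sro9 mode of either library. Of 1311 comparisons of named mRNAs, 1166 kept the sign of the log2 difference and, as in the main fit, had no call. In 60 the sign changed without a call, and the rest kept the sign and were called. Overlap of the shares was not part of this count.

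Differences of list sums, Slf1 minus Sro9 in percentage points, moved as follows. In totals without OLA1 and RPS0A they were 1.42 for small and 1.07 for large subunit proteins, 2.38 for antioxidant, 2.05 for elongation, -1.01 for ribosome-associated, 7.44 for glycolysis, -0.69 for chaperone and 2.13 for cell wall mRNAs. A minimum of 20 reads per cluster gave -10.6 for small and -2.96 for large subunit, -0.26 for stalk, -1.51 for chaperone, -0.13 for respiratory, -0.0635 for biogenesis and -0.45 for proteasome mRNAs. With the ORF only they were 5.73 for glycolysis and -1.79 for chaperones. Chosen after seeing the data, clusters of at least 0.25 conversions per read gave -3.47 for small and 0.78 for large subunit, 3.86 for antioxidant, 2.1 for elongation, -0.89 for ribosome-associated, 0.0106 for chaperone, -0.51 for pentose phosphate and -0.0668 for respiratory mRNAs. Also chosen then, the depth-matched minimum gave -16.8 for small and -3.54 for large subunit, -0.35 for stalk, -1.78 for antioxidant, -0.20 for initiation, 3.33 for glycolysis, -0.43 for pentose phosphate, -0.0338 for respiratory, 0.16 for biogenesis and -0.0818 for proteasome mRNAs. Conversion events, clusters over 20 nt and crossed numbers were added then too.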
